A study of Homo sapiens with 35 samples.

Results

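The unfolded protein response is the programme by which a cell adjusts its endoplasmic reticulum (ER) to the load of proteins folding there, and 37 of its genes were followed here through RNA-seq and ChIP-seq of TWEAK-treated glioma cells. The 37 were taken by symbol: the sensors and transcription factors of the IRE1, ATF6 and PERK arms and a set of their output genes, which are chaperones, folding enzymes, translocation and vesicle-coat proteins and parts of the ER-associated degradation machinery. All 37 were found among the 62696 rows of the count table, and all 37 passed the filter on low counts that left 16879 genes for testing. *ERN1*, which encodes IRE1α, was singled out by the study from these same libraries, so its levels are described here and are not independent evidence of their own direction.

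When unfolded proteins accumulate, IRE1α cuts *XBP1* mRNA, which is then rejoined into a form that encodes an active transcription factor. ATF6 travels to the Golgi and is cleaved there to release its own transcription factor, while PERK (*EIF2AK3*) phosphorylates eIF2α and so favours translation of ATF4. XBP1 and ATF6 raise chaperones such as BiP (*HSPA5*) through the ER stress response element of their promoters. Gene-level counts do not separate spliced from unspliced *XBP1* mRNA, nor do they report on the cleavage of ATF6 or the phosphorylation of IRE1α and PERK.

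The cells were U-87 MG, an established human glioblastoma line, carrying a CRISPR control or a lentiviral CRISPR-Cas9 knockdown (KD) of *ETS1* or *NFKB2*, the gene of the NF-κB subunit p52. TWEAK is a TNF-family cytokine that activates non-canonical NF-κB signalling and hence p52. All cells were starved for 8 h, and treated cells then received 10 ng/ml TWEAK for 48 h with a renewal at 24 h. PolyA RNA was sequenced in control untreated, control TWEAK, *ETS1* KD TWEAK and *NFKB2* KD TWEAK cells (n = 3 each), which the study describes as biological replicates. ChIP-seq peaks (2 libraries a group) were given for p52 in control untreated, control TWEAK and 2 *ETS1* KD guides with TWEAK, for ETS1 in control cells with and without TWEAK, and for RNA polymerase II (Pol II) in the same 4 groups as the RNA. KD cells without TWEAK were not analysed here, and the guide behind the RNA-seq and Pol II KD samples is not given in the sources used here.

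The RNA-seq libraries held 28384201 to 40192606 counts. *ETS1* stood at 71.9, 73.1 and 87.6 counts per 1000000 library counts (CPM) in control TWEAK cells and at 28.2, 33.0 and 37.8 CPM in *ETS1* KD cells, and *NFKB2* at 235, 289 and 346 CPM in control TWEAK cells against 75.6, 92.6 and 105 CPM in *NFKB2* KD cells, so each KD library stood below every control TWEAK library for its target. Markers of a mesenchymal glioma line were high (*VIM* 9088 CPM or more in every library), whereas *SOX2*, *GFAP*, *AQP4*, *RBFOX3*, *PTPRC* and *CD3E* did not exceed 0.365 CPM in any library, and *CDKN2A* had no count. *SNAP25*, a gene of neurons, was the highest of the markers listed for other cell types, at 12.4 to 19.9 CPM in all groups. The libraries differed in how level related to the GC content of genes: control untreated replicate 3 and *NFKB2* KD replicate 2 had slopes of 0.226 and 0.264 on the log2 scale for each 10 percentage points of GC, whereas the other 10 lay between -0.154 and 0.0801. The comparisons of TWEAK, *ETS1* KD and *NFKB2* KD all used the 3 control TWEAK libraries, and are therefore not independent of each other.

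The promoters of the genes on which the results turned are given first, since their known elements are what XBP1 and ATF6 read. The sequences are from RefSeq (GRCh38.p14), run 5′ to 3′ along the gene from 250 bases before to 50 bases after its start, and were found for 33 of the 37 genes (*SEC24D*, *DERL1*, *DERL3* and *PDIA3* were not matched). Capitals mark an ER stress response element (CCAAT, any 9 bases, CCACG), an ERSE-II (ATTGG, any base, CCACG), the UPRE core TGACGTGG, the ETS core CCGGAAGT or an NF-κB site, searched on both strands, and position 0 is the start.
*HSPA5*, chr9:125241294-125241593, minus strand, ER stress response element at -66 to -48: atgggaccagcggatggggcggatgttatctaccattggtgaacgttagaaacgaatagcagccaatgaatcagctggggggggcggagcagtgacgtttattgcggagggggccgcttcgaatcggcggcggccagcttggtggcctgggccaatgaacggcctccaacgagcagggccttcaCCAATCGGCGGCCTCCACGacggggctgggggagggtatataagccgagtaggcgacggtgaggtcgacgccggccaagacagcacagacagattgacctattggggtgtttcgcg
*HERPUD1*, chr16:56931892-56932191, plus strand, ERSE-II at -117 to -107: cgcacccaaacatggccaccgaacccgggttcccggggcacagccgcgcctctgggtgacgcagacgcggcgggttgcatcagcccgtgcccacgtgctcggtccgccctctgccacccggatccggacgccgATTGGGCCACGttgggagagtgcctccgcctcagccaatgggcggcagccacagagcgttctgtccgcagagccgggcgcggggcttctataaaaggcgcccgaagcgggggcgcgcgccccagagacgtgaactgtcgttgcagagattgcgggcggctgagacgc
*DNAJB9*, chr7:108569624-108569923, plus strand, ETS core at -113 to -106: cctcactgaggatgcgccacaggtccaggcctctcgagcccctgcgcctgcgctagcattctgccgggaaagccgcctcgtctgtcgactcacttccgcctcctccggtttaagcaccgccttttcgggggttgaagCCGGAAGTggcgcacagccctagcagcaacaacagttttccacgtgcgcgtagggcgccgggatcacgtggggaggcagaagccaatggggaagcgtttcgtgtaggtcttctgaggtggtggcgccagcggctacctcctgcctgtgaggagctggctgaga
*XBP1*, chr22:28800520-28800819, minus strand, ER stress response element at -52 to -34: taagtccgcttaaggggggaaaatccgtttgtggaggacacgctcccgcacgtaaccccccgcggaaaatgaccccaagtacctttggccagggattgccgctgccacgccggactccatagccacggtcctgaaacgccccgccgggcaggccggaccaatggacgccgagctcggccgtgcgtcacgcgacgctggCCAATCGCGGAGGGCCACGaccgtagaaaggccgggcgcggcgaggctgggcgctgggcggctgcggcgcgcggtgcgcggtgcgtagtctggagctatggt
*CANX*, chr5:179698717-179699016, plus strand, ER stress response element at -189 to -171: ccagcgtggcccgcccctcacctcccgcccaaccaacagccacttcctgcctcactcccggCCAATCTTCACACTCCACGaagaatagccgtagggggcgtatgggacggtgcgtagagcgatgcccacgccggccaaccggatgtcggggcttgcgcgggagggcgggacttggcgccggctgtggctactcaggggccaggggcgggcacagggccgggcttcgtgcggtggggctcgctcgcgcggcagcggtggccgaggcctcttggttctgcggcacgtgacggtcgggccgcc
*EDEM1*, chr3:5187457-5187756, plus strand, none of these elements: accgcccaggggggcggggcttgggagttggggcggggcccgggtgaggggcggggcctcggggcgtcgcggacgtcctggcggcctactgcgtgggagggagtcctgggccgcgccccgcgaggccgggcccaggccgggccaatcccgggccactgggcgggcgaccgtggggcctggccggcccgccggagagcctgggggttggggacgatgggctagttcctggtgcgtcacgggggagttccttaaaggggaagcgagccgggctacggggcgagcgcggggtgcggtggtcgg
*P4HB*, chr17:81860486-81860785, minus strand, none of these elements: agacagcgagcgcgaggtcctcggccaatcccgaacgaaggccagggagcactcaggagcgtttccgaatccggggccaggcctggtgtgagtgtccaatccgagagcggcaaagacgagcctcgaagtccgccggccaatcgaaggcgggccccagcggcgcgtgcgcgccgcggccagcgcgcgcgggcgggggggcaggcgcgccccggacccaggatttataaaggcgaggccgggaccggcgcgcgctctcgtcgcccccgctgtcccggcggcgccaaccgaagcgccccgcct
*OSTC*, chr4:108650349-108650648, plus strand, none of these elements: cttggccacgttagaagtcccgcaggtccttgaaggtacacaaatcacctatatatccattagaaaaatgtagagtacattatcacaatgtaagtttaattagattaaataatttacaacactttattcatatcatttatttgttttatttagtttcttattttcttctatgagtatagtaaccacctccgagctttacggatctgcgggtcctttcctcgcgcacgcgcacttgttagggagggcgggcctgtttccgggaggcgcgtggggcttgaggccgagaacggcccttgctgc
*ERN1*, chr17:64130095-64130394, minus strand, none of these elements: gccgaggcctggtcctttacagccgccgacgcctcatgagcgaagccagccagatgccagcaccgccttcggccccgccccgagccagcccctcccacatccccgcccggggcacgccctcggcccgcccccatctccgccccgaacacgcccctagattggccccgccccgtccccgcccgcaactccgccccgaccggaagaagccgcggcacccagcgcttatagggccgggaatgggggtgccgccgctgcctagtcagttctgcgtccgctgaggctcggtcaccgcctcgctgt
*HSPA5*, *HERPUD1* and *DNAJB9* were the genes called in the *ETS1* KD comparison, while *XBP1*, *CANX*, *EDEM1*, *P4HB* and *OSTC* had an ETS1 promoter peak in both libraries after TWEAK.

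The full ER stress response element was in 7 of the 33 promoters (*XBP1*, *HSPA5*, *HSP90B1*, *PDIA6*, *CALR*, *CANX* and *CRELD2*), whereas it was in 0.0769% of all 35116 RefSeq promoter windows of this length. ERSE-II was in 3 of the 33 (*HERPUD1*, *SDF2L1* and *HYOU1*) and in 0.0541% of all windows, and the UPRE core was in *HYOU1* alone of the 33 and in 0.729% of all windows, where it overlapped one of the 2 ERSE-II matches of that promoter. The short parts CCACG and CCAAT were each in 27 of the 33 promoters and in 38.1% and 34.6% of all windows. The ETS core CCGGAAGT was in 4 of the 33 (*DNAJB9*, *SEC31A*, *SYVN1* and *SSR3*) and in 4.14% of all windows, the shorter AGGAAG was in 10 of the 33 and in 33.6%, and an NF-κB site was in 0 of the 33 and in 5.91%. These genes are in part those on which the elements were first defined, and a match is a description of the letters only.

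The levels of these genes covered a wide range. Per kilobase of gene length and averaged over the 12 libraries, *CALR* (calreticulin, a lectin chaperone) at 685 CPM per kb and *HSPA5* at 394 CPM per kb lay at percentiles 99.8 and 99.6 of tested genes. *ERN1* lay at 0.728 CPM per kb (percentile 27.96) and *DERL3*, a degradation channel component, at 0.225 CPM per kb (percentile 12.2). The remaining 33 genes ran from 1.55 CPM per kb for *EIF2AK3* to 146 CPM per kb for *PDIA4*, a disulphide isomerase.

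The first question was whether TWEAK changed the pathway. In control cells, TWEAK left 0 of the 37 genes past an adjusted p of 0.05 (edgeR quasi-likelihood test, Benjamini-Hochberg over all 16879 genes), where 1.55% of tested genes were called higher and 1.53% lower. DESeq2 also called 0, and at an unadjusted p under 0.05, 4 of the 37 were higher (*ERN1*, *HSPA5*, *HERPUD1* and *SEC23B*) and 0 lower. Here and below, counts at an unadjusted p are given without the share of all tested genes at that limit. They are therefore descriptions only. The median log2 fold change of the 37 was 0.13, against 0.02 for all tested genes. Of the 37, 8 had all 3 TWEAK libraries above all 3 untreated libraries and 2 had them all below, and the corresponding shares of all tested genes were 11% and 11.5%.

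*ERN1* (ENSG00000178607, chr17:64039080-64130819, minus strand) had 9.76, 9.34 and 13.6 CPM in the untreated libraries and 12.8, 17.0 and 24.96 CPM in the TWEAK libraries. The groups overlapped, since the highest untreated library lay above the lowest TWEAK library. The fold change of *ERN1* with TWEAK was 0.74 ± 0.24 on the log2 scale (SE, n = 3 per group), with an adjusted p of 0.136 from edgeR. The unadjusted p was 0.0086, and *ERN1* met the limits that the study used (p of at most 0.05 and at least 1.5-fold). A correction for the GC content and length of genes left the change at 0.75 and gave an adjusted edgeR p of 0.0091. The adjusted p of *ERN1* ranged from 0.000803 to 0.498 over 21 alternative settings and its change from 0.44 to 0.94, the lowest without control TWEAK replicate 3, the library at 24.96 CPM. In bulk RNA, a smaller share of expressing cells and less RNA per cell cannot be told apart, here and in the results that follow.

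The other sensors and transcription factors gave smaller differences with TWEAK. *XBP1* had 96.4, 95.9 and 82.6 CPM untreated and 114, 98.0 and 94.2 CPM with TWEAK, with overlapping groups and a log2 fold change of 0.16 ± 0.18. *ATF6* had 151, 145.5 and 135 CPM untreated and 137, 133 and 145 CPM with TWEAK, a log2 fold change of -0.06 ± 0.11. *EIF2AK3* had 32.9, 37.6 and 31.3 CPM untreated and 34.4, 33.5 and 35.3 CPM with TWEAK, a log2 fold change of 0.02 ± 0.14. *CREB3L2*, an ER-anchored transcription factor of the ATF6 kind, had 97.4, 101 and 182 CPM untreated and 91.0, 156 and 188 CPM with TWEAK. Its replicates therefore differed by more than the group means did, and its log2 fold change was 0.19 ± 0.30.

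The output genes were described by role. Of the 9 chaperones and their partners, 8 had a positive log2 fold change with TWEAK (median 0.18), the largest being *HYOU1*, a nucleotide-exchange partner of BiP, at 0.36 ± 0.17, and in *HSPA5*, *DNAJB11*, *DNAJC3* and *SDF2L1* the libraries did not overlap. *HSPA5* had 2889, 2740.4 and 2999.9 CPM untreated and 3455.5, 3183 and 3424.5 CPM with TWEAK, a log2 fold change of 0.22 ± 0.10 with an adjusted edgeR p of 0.301. Of the 6 lectins and disulphide isomerases, 5 had a positive log2 fold change, with a median of 0.18 over the 6. The 5 translocation and glycosylation genes had a median of -0.04 and the 3 genes of the COPII vesicle coat, which carries cargo from the ER, a median of 0.03, with *SEC23B* at 0.32 ± 0.12 and *SEC31A* at -0.15 ± 0.10. Of the 7 degradation genes, *HERPUD1* had the largest change at 0.30 ± 0.11, and *PPP1R15A*, the phosphatase subunit that reverses eIF2α phosphorylation, gave 0.41 ± 0.21.

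**Figure D1:**
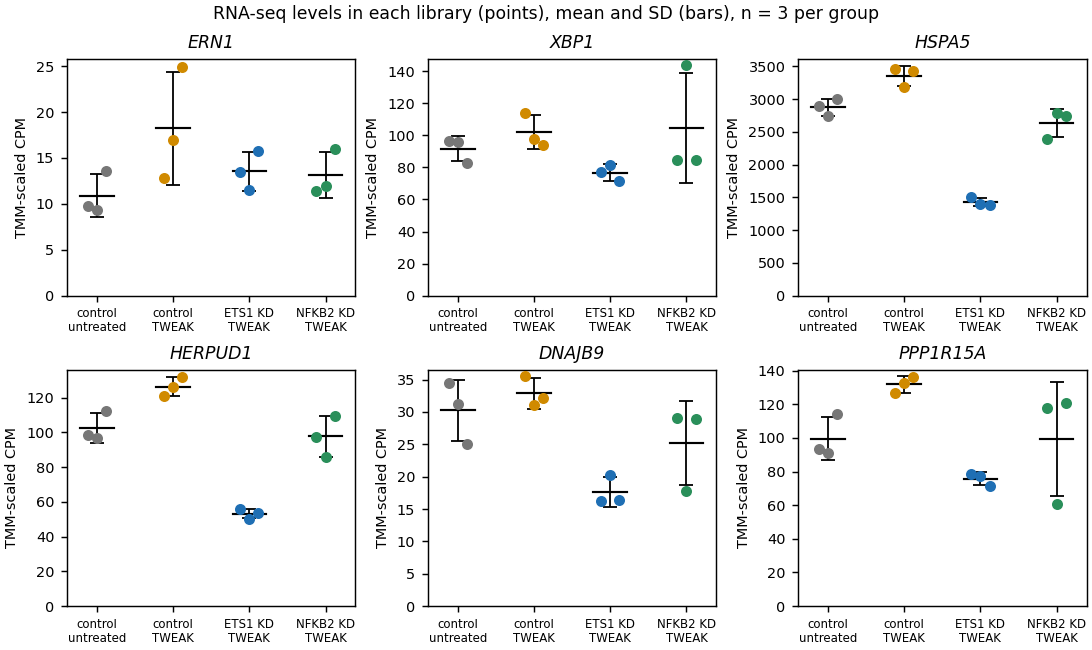
RNA-seq level of 6 genes in each library, in counts per 1000000 (CPM) scaled by the trimmed mean of M-values (TMM) on the vertical axis and by group on the horizontal axis, with points for libraries, horizontal bars for means and whiskers for the SD (n = 3). *HSPA5*, *HERPUD1* and *DNAJB9* are lowest in the 3 *ETS1* KD libraries relative to both control groups, whereas the *ERN1* libraries of control TWEAK cells (12.8, 17.0 and 24.96 CPM) overlap those of each other group.

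In TWEAK-treated cells, 3 of the 37 genes were lower with *ETS1* KD and 0 were higher, where 1.13% of tested genes were lower and 0.255% higher. The 3 were *HSPA5* (BiP, the main ER chaperone of the Hsp70 family), *HERPUD1* (a membrane protein of ER-associated degradation) and *DNAJB9* (ERdj4, a co-chaperone of BiP). Of the 37, 33 had a negative log2 fold change, their median was -0.17 against 0.01 for all tested genes, and 8 were lower and 0 higher at an unadjusted p under 0.05. In 14 of the 37 all *ETS1* KD libraries lay below all control TWEAK libraries and in 0 they lay above, and the shares of all tested genes were 10.8% and 9.57%. Over all genes the split between 43 higher and 191 lower calls became 198 higher and 318 lower after the correction for GC content and length, and 138 higher and 332 lower with DESeq2, and under each of these 4 of the 37 were lower and 0 higher.

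*HSPA5* (ENSG00000044574, chr9:125234853-125241382, minus strand) had 1500.4, 1405 and 1390 CPM in *ETS1* KD cells, against 3455.5, 3183 and 3424.5 CPM in control TWEAK cells and 2740.4 to 2999.9 CPM in untreated cells. Every *ETS1* KD library thus lay below every library of the other groups. The log2 fold change was -1.23 ± 0.10 (SE, n = 3 per group), with an adjusted edgeR p of 5.06e-05. *HERPUD1* (ENSG00000051108, chr16:56932142-56944864, plus strand) had 55.8, 50.2 and 53.8 CPM in *ETS1* KD cells and 121, 126 and 132 CPM in control TWEAK cells. It likewise lay below its untreated range of 96.5 to 112 CPM, and its log2 fold change was -1.24 ± 0.11, with an adjusted edgeR p of 0.000157. Both genes were called in each of the 21 alternative settings, with adjusted p-values of at most 0.00126 for *HSPA5* and 0.00208 for *HERPUD1*.

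*DNAJB9* (ENSG00000128590, chr7:108569867-108574850, plus strand) had 16.2, 20.3 and 16.4 CPM in *ETS1* KD cells and 35.5, 31.0 and 32.1 CPM in control TWEAK cells. The groups did not overlap, and the log2 fold change was -0.90 ± 0.19 with an adjusted edgeR p of 0.0341. This call was lost without control TWEAK replicate 1, 2 or 3 (adjusted p 0.114, 0.0689 and 0.0782) and without *ETS1* KD replicate 1 or 3 (adjusted p 0.126 and 0.184), with log2 fold changes of -0.84 to -0.95. It was also lost with the replicate number as a block (adjusted edgeR p of 0.0514), and was kept in the other 15 of the 21 alternatives. *PPP1R15A*, named after its values were seen, had 78.5, 77.4 and 71.2 CPM in *ETS1* KD cells and 127, 132 and 136 CPM in control TWEAK cells, again without overlap. Its log2 fold change was -0.80 ± 0.21 with an adjusted edgeR p of 0.0929, which became 0.00179 without *NFKB2* KD replicate 2, a library outside this contrast that entered the shared estimate of the spread.

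*ERN1* was not called with *ETS1* KD: it had 13.5, 11.5 and 15.7 CPM against 12.8, 17.0 and 24.96 CPM in control TWEAK cells, and the groups overlapped. Its log2 fold change was -0.43 ± 0.24, with an adjusted edgeR p of 0.546 and a range of adjusted p of 0.0801 to 0.944 over the 21 alternatives. Without control TWEAK replicate 3 the change was -0.14. *XBP1* had 77.0, 81.8 and 71.6 CPM in *ETS1* KD cells, below every control TWEAK library, with a log2 fold change of -0.41 ± 0.18 and an adjusted edgeR p of 0.396. *ATF6* (120, 153 and 135 CPM) and *EIF2AK3* (27.2, 33.0 and 31.0 CPM) gave -0.02 ± 0.11 and -0.18 ± 0.14, and *CREB3L2* (123, 101 and 154 CPM) gave -0.20 ± 0.30.

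Among the other output genes, *HSP90B1* (the ER Hsp90, -0.45 ± 0.15), *HYOU1* (-0.42 ± 0.17) and *EDEM1* (a mannosidase-like factor of degradation, -0.37 ± 0.13) were below every control TWEAK library but did not pass the adjusted test. The 6 lectins and disulphide isomerases had a median log2 fold change of -0.15, with *P4HB* at 0.01 ± 0.15 and *CANX* at -0.21 ± 0.11. The 5 translocation and glycosylation genes had a median of -0.10, and the 3 COPII genes a median of -0.17. Of the 7 genes whose promoter held an ER stress response element, *HSPA5* was called, *HSP90B1*, *XBP1*, *CANX*, *PDIA6* and *CALR* had values of -0.15 to -0.45, and *CRELD2* was at -0.06 ± 0.17.

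**Figure D2:**
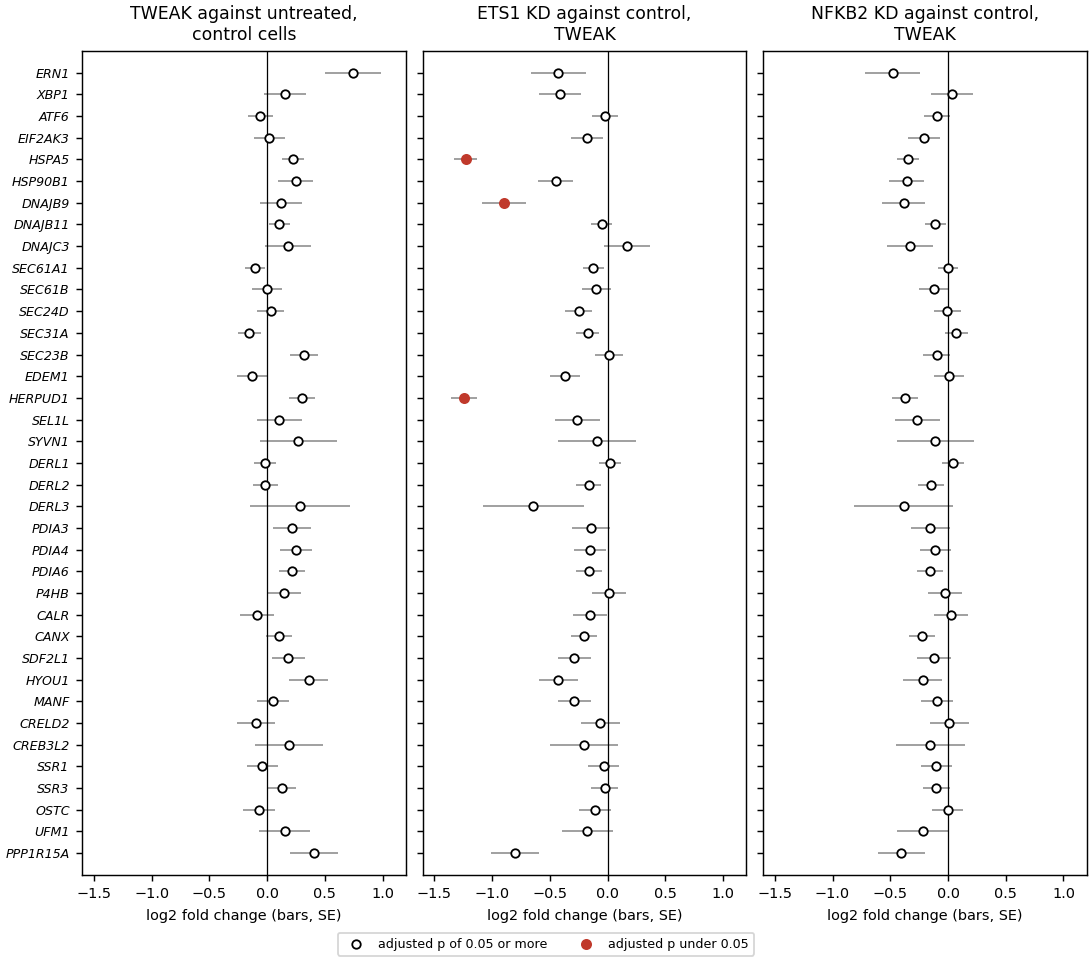
Log2 fold change (horizontal axis, points, with the SE as bars) of each of the 37 genes (vertical axis) for TWEAK against untreated control cells, *ETS1* KD against control and *NFKB2* KD against control, the last 2 with TWEAK, n = 3 per group. Filled points mark an adjusted p under 0.05, which only *HSPA5*, *HERPUD1* and *DNAJB9* reached, all with *ETS1* KD.

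*NFKB2* KD in TWEAK-treated cells left 0 of the 37 genes past the adjusted test with edgeR and 0 with DESeq2, where 0.00592% of tested genes were higher and 0.0237% lower with edgeR. At an unadjusted p under 0.05, 3 of the 37 were lower (*HSPA5*, *HERPUD1* and *HSP90B1*) and 0 higher. The median log2 fold change of the 37 was -0.12 against -0.02 for all tested genes. In 6 of the 37 all *NFKB2* KD libraries lay below all control TWEAK libraries and in 0 above, and the shares of all tested genes were 3.82% and 3.05%. The edgeR test called 5 genes of 16879 in all.

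*HSPA5* had 2387, 2779.8 and 2746 CPM in *NFKB2* KD cells, below every control TWEAK library, with a log2 fold change of -0.35 ± 0.10. *HERPUD1* had 97.4, 86.0 and 109.7 CPM, also below every control TWEAK library, with a log2 fold change of -0.37 ± 0.11. *DNAJB9* had 29.0, 17.7 and 28.9 CPM and *PPP1R15A* 117, 60.4 and 121 CPM, and in both it was replicate 2 that lay far below the other 2 libraries. The same replicate was the highest of its group for *XBP1*, at 144 CPM against 84.4 and 85.0 CPM, and the lowest for *ATF6* (135, 116 and 137 CPM) and *EIF2AK3* (31.2, 24.1 and 34.0 CPM). It was also the library with the steepest relation to GC content, and the part of that relation in these values was not tested. *CREB3L2* had 110.4, 111 and 169.7 CPM. *ERN1* had 11.4, 11.9 and 16.0 CPM, which overlapped the control TWEAK libraries, with a log2 fold change of -0.48 ± 0.24 and an unadjusted edgeR p of 0.0665. Without control TWEAK replicate 3 this change was -0.16.

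The KDs were then set directly against each other, where their *ERN1* libraries overlapped. *ERN1* differed between *ETS1* KD and *NFKB2* KD by 0.05 ± 0.24 on the log2 scale, with an adjusted edgeR p of 0.952, and from -0.072 to 0.19 when single libraries were left out. *HSPA5* was lower in *ETS1* KD, with a log2 fold change of -0.88 ± 0.10 (adjusted edgeR p of 0.00106), as was *HERPUD1*, at -0.87 ± 0.11 (adjusted edgeR p of 0.00234), and the libraries of the KDs did not overlap in either gene. These were the 2 of the 37 called lower, with 0 higher, where 1.4% of tested genes were lower and 0.533% higher. Over all genes, 90 higher and 237 lower calls became 408 and 465 after the GC content and length correction, under which 3 of the 37 were lower. Without *NFKB2* KD replicate 2, *DNAJB9* and *PPP1R15A* were also called lower in *ETS1* KD (4 of the 37), at -0.71 and -0.65.

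The order of the groups differed between *ERN1* and the genes called. Mean *ERN1* ran from 10.9 ± 2.32 CPM in untreated cells through 13.1 ± 2.53 in *NFKB2* KD and 13.6 ± 2.13 in *ETS1* KD to 18.2 ± 6.19 in control TWEAK cells (SD, n = 3), and no neighbours in that order differed beyond their spread. Mean *HSPA5* ran from 1432 ± 59.9 CPM in *ETS1* KD through 2638 ± 218 in *NFKB2* KD and 2877 ± 130.2 in untreated cells to 3354 ± 149 in control TWEAK cells. For *HSPA5*, the step from *ETS1* KD to *NFKB2* KD exceeded the spread, whereas the *NFKB2* KD and untreated libraries overlapped. *HERPUD1* gave the same order, at 53.3 ± 2.83, 97.7 ± 11.8, 102 ± 8.53 and 126 ± 5.61 CPM. *HSPA5* and *HERPUD1* in *ETS1* KD cells were thus below the untreated level, whereas *ERN1* was not.

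The rest of the pathway was read from a list of 77 further genes, of which 76 were tested. With TWEAK, 2 of the 76 were called higher and 0 lower (3 and 0 with DESeq2, which added *CHAC1*), against 1.55% of all tested genes called higher, so the count alone does not set the list apart. Both called genes encode partners of IRE1α in signalling to JNK. *TRAF2*, the adaptor, had 16.5, 16.7 and 16.4 CPM untreated and 30.1, 30.9 and 32.4 CPM with TWEAK, a log2 fold change of 0.91 ± 0.09 with an adjusted edgeR p of 0.000249. *MAP3K5*, the kinase ASK1, gave 0.76 ± 0.12 with an adjusted edgeR p of 0.00534, and was named after its value was seen. TRAF2 also serves TNF receptors. *TRAF2* was higher in *ETS1* KD than in *NFKB2* KD cells by 0.46 ± 0.09 (adjusted edgeR p of 0.0242). The mRNAs known to be cut by IRE1α when it degrades RNA, namely *BLOC1S1*, *SCARA3*, *PDGFRB*, *COL6A1*, *SPARC* and *HGSNAT*, did not pass the adjusted edgeR test in any of the 4 comparisons. At an unadjusted p under 0.05, *SPARC* was lower with TWEAK, higher with *NFKB2* KD and lower in the direct comparison of the KDs, and *SCARA3* was lower with *ETS1* KD and in the direct comparison of the KDs, where DESeq2 called it.

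The genes of that list called lower by edgeR with *ETS1* KD were all among the 10 listed under the PERK arm. Of these 10, 8 were called lower and 0 higher (1.13% and 0.255% of all tested genes). The list was drawn up with earlier results of these data known, so this count is a description and not a test. In the 66 tested genes of the other groups, 0 were called by edgeR (2 lower and 0 higher at an unadjusted p under 0.05) and 1, *ERO1B*, was lower by DESeq2. The name of the group is a label only: PERK activity was not measured, and whether PERK took part in the fall was not tested. *EIF2AK3* RNA, which does not report that activity, changed by -0.18 ± 0.14. *ATF3* (a stress-induced repressor) changed by -2.30 ± 0.16 on the log2 scale, *TRIB3* (a pseudokinase induced by ATF4) by -1.95 ± 0.20, *NUPR1* (a stress-induced chromatin protein) by -1.91 ± 0.19 and *DDIT3* (CHOP) by -1.82 ± 0.18. *CHAC1*, which degrades glutathione, changed by -1.47 ± 0.15, *ASNS* (asparagine synthetase) by -1.46 ± 0.31, *SESN2* (sestrin 2) by -1.37 ± 0.19 and *ATF4* itself, named after its value was seen, by -0.58 ± 0.10. The 8 adjusted edgeR p-values ran from 3.15e-05 to 0.0371. *DDIT3* had 40.1, 39.8 and 29.3 CPM in *ETS1* KD cells, against 98.4 to 110.2 CPM in untreated, 149, 119 and 117 CPM in control TWEAK and 70.1 to 108 CPM in *NFKB2* KD cells, so every *ETS1* KD library lay below the rest. The same 8 genes were lower in *ETS1* KD than in *NFKB2* KD cells (1.4% of all tested genes), and the median log2 fold change of the 10 was -1.47 with *ETS1* KD, -0.20 with *NFKB2* KD and 0.27 with TWEAK. With TWEAK, edgeR called 0 of the 10 (3 higher at an unadjusted p under 0.05, and 1 with DESeq2), and with *NFKB2* KD it called 0 (2 lower at an unadjusted p under 0.05, and 0 with DESeq2). *PPP1R15B* and *EIF2S1*, the remaining 2, gave -0.07 ± 0.14 and 0.16 ± 0.19 with *ETS1* KD.

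**Figure D3:**
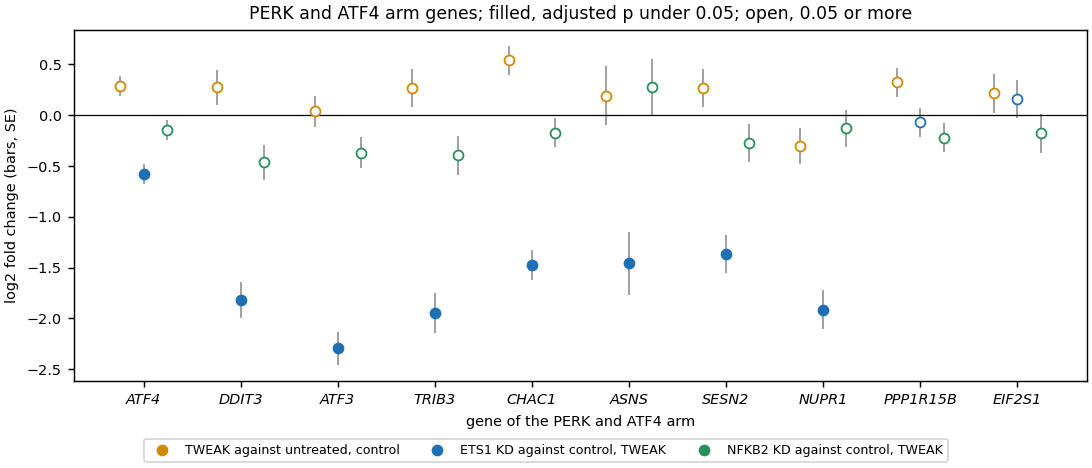
Log2 fold change (vertical axis, points, with the SE as bars) of the 10 genes listed under the PERK and ATF4 arm (horizontal axis) in the TWEAK, *ETS1* KD and *NFKB2* KD comparisons, n = 3 per group. The activity of PERK was not measured. The filled points, with an adjusted p under 0.05, are 8 of the *ETS1* KD values, from -0.58 for *ATF4* to -2.30 for *ATF3*.

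Promoter peaks were then listed for the 37 genes, counting a peak that shared at least 1 base with the stretch from 1000 bases before to 100 bases after any annotated start of the gene and that was called in both libraries of a group. For p52, 0 of the 37 had one in untreated, control TWEAK, *ETS1* KD guide 1 or *ETS1* KD guide 2 cells, and the shares of 16873 tested genes were 0.0178%, 3.89%, 1.64% and 4%. A p52 peak in 1 of 2 libraries stood at *ERN1* and at *ATF6*, both in control TWEAK replicate 2, which held 11761 peaks against 3579 in replicate 1. The p52 peak at *ERN1* (chr17:64130612-64130996, hg38) had a fold enrichment of 9.97 and a -log10 q of 19.4, ranked 3744 of 11761 in its list, and peaked at -630 bases from the main start. The p52 peak at *ATF6* had a fold enrichment of 5.32 and ranked 8253.

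The 201 bases centred on the summit of the *ERN1* peak hold 1 NF-κB site, in capitals, as did the 201 bases around 63.6% of the peaks in that library.
*ERN1* p52 summit, chr17:64130674-64130874, minus strand: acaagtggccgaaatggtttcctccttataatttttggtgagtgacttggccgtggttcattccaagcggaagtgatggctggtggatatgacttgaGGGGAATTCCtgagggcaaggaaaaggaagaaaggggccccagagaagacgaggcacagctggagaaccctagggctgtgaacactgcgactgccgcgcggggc
A further p52 peak lay inside *ERN1*, with summits 45438 to 45459 bases downstream of the main start. It was called in both libraries of *ETS1* KD guide 2, with fold enrichments of 9.61 and 6.84, and in control TWEAK replicate 2, at 7.15. No p52 peak of the *ETS1* KD libraries lay at the *ERN1* promoter, and with 1 of 2 control libraries holding it the difference has no replicate check.

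For ETS1, 2 of the 37 genes had a promoter peak in both untreated libraries (*CANX* and *OSTC*) and 5 in both TWEAK libraries (*XBP1*, *EDEM1*, *P4HB*, *CANX* and *OSTC*), where the shares of tested genes were 5.03% and 7.22%. *OSTC*, a subunit of the oligosaccharyltransferase that glycosylates nascent proteins, had the strongest, with fold enrichments of 15.3 and 14.6 untreated and 19.2 and 18.5 with TWEAK. It ranked 40 of 3570 and 57 of 3145 in the TWEAK lists. The *OSTC* promoter window holds no full match to the ETS core CCGGAAGT. That core was in 4.0% and 3.16% of ETS1 peaks searched in TWEAK replicates 1 and 2, and in 4.14% of all promoter windows. No conclusion on binding is drawn from its absence at *OSTC*. The *XBP1* peaks were weak, with fold enrichments of 4.31 and 4.05, and the *EDEM1* peaks reached 5.40 and 5.73 and the *P4HB* peaks 5.93 and 5.28. The *CANX* peaks of the TWEAK libraries lay at different starts, 8 bases from one in replicate 1 and 6 bases from another, with the summit at -20333 bases from the main start, in replicate 2. No ETS1 peak was listed within *ERN1*, *HSPA5*, *HERPUD1* or *DNAJB9* or within 10 kb of them in any of the 4 libraries. The share of all tested genes with an ETS1 peak at that distance is not given here. The study, by contrast, describes ETS1 at the *ERN1* promoter with and without TWEAK from its ChIP-seq tracks, which were not examined here. Its western blots also showed IRE1α protein raised by TWEAK and not after KD of *ETS1* or *NFKB2*, and protein was not measured here. For p52, *EDEM1* was the one gene of the 37 with a peak in or within 10 kb of it in both control TWEAK libraries, against 13.3% of all tested genes. The summits lay 40280 and 40287 bases downstream of its main start, beyond the end of the gene, at fold enrichments of 9.19 and 16.9, and the gene was picked out after the peaks were seen.

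None of the 3 genes called with *ETS1* KD had an ETS1 or p52 promoter peak, and none of the 5 with an ETS1 peak in both TWEAK libraries was called. Of all tested genes, 7.22% had an ETS1 and 3.89% a p52 promoter peak in both control TWEAK libraries, and 1.13% were called lower with *ETS1* KD. With 3 and 5 genes, counts of 0 do not depart from these shares, and no conclusion on binding is drawn from them. In the latter 5, the log2 fold changes with *ETS1* KD were -0.41 for *XBP1*, -0.37 for *EDEM1*, 0.01 for *P4HB*, -0.21 for *CANX* and -0.11 for *OSTC*.

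**Figure D4:**
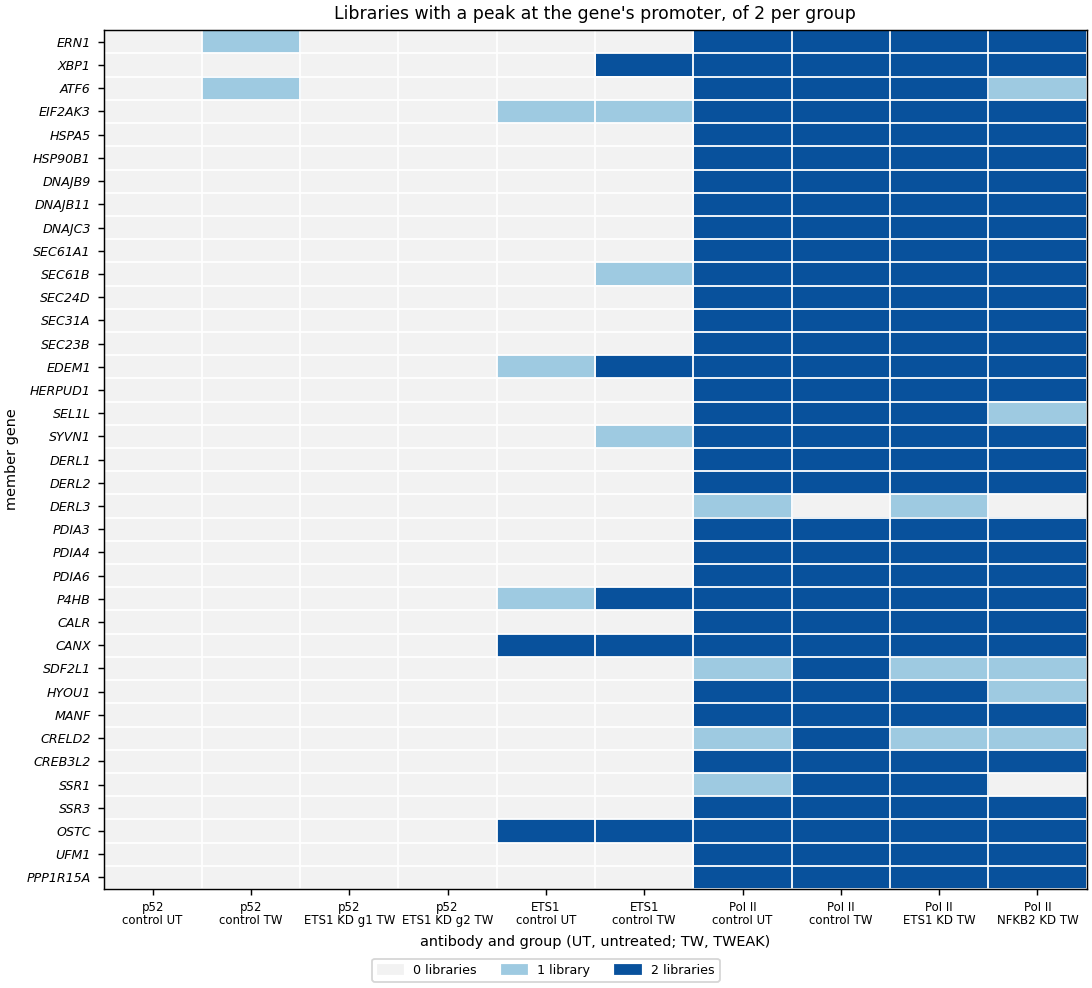
Number of libraries, of 2 per group, that hold a peak at the promoter of each of the 37 genes (rows), by antibody and group (columns), with grey, light blue and dark blue cells for 0, 1 and 2 libraries. Pol II columns are dark for 30 to 36 genes, ETS1 columns for 2 and 5, and p52 columns for 0.

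Pol II was at the promoter of nearly all of these genes: 33 of the 37 had a peak in both libraries of untreated cells, 36 after TWEAK, 34 with *ETS1* KD and 30 with *NFKB2* KD. The shares of all tested genes were 45.7%, 57.4%, 49.1% and 43.1%. *DERL3*, the lowest of the 37 in RNA per kb, had a peak in both libraries of no group. The Pol II libraries differed widely, from 11175 peaks in *NFKB2* KD replicate 2 to 44672 in control TWEAK replicate 1, so each promoter's fold enrichment was divided by the median over the 5497 genes with a promoter peak in all 8 libraries, among which were 30 of the 37. This scale was chosen after the peaks had been seen, and with 2 libraries a group no exact test can pass 0.05 (the smallest two-sided p is 0.333).

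*ERN1* had a relative Pol II enrichment of 2.36 and 2.27 in untreated, 5.39 and 4.32 in control TWEAK, 4.21 and 3.86 with *ETS1* KD and 2.95 and 1.30 with *NFKB2* KD. Both TWEAK libraries lay above the untreated ones and both libraries of each KD lay below the control TWEAK ones, and of the *NFKB2* KD libraries 1 lay above and 1 below both untreated ones, the lower being replicate 2, which held the fewest peaks. The raw fold enrichments were 20.5 and 36.1, 85.8 and 53.1, 40.1 and 37.9, and 34.0 and 9.61 in the same order of groups. *HSPA5* had relative enrichments of 4.60 and 4.16 untreated, 5.63 and 4.61 in control TWEAK, 4.12 and 3.82 with *ETS1* KD and 4.33 and 2.48 with *NFKB2* KD. The *ETS1* KD values of *HSPA5* lay below both control TWEAK values, a difference of -0.36 on the log2 scale, where the log2 fold change of its RNA was -1.23. Peak enrichment leaves out how far a peak extends. The *HSPA5* peak spanned the gene in both control TWEAK libraries, with lower edges at chr9:125232512 and 125231865. With *ETS1* KD the edges lay inside the gene, at 125239439 and 125240790, as in untreated replicate 1 (125238754) and *NFKB2* KD replicate 2 (125240611). The remaining libraries spanned it as well, and what set the extent was not tested. *HERPUD1* had relative enrichments of 2.70 and 3.99, 7.24 and 4.37, 4.72 and 4.36, and 3.68 and 3.43 in the same order, and its *ETS1* KD and control TWEAK values overlapped.

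Over the 30 genes, the median log2 difference in relative enrichment was 0.37 with TWEAK, -0.28 with *ETS1* KD and -0.41 with *NFKB2* KD, against 0.05, -0.03 and -0.05 over the 5497 genes. Both TWEAK libraries lay above both untreated ones in 14 of the 30 (21% of the 5497), both *ETS1* KD libraries lay below both control TWEAK ones in 14 (19.4%) and both *NFKB2* KD libraries did so in 13 (21.7%). The largest positive difference with TWEAK was that of *ERN1* (1.06), followed by *P4HB* (1.03) and *DERL1* (0.82), whereas *CREB3L2* (-0.35) and *SEC61B* (-0.25) lay at the other end. With *NFKB2* KD, *ERN1* again gave the largest difference (-1.30), from values of 2.95 in replicate 1 and 1.30 in replicate 2. *EDEM1*, *PDIA6*, *CREB3L2*, *PDIA4* and *SEC61B* were above zero. The study singled out *ERN1* from these same libraries, so its ranks are descriptions and not independent evidence. RNA and the enrichment of the Pol II promoter peak, which leaves out the gene body, gave different rankings. The genes with the largest falls in RNA with *ETS1* KD were *HERPUD1* and *HSPA5*. Those with the most negative differences in relative Pol II enrichment were *UFM1* (-0.83), *P4HB* (-0.82) and *SEC24D* (-0.77).

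**Figure D5:**
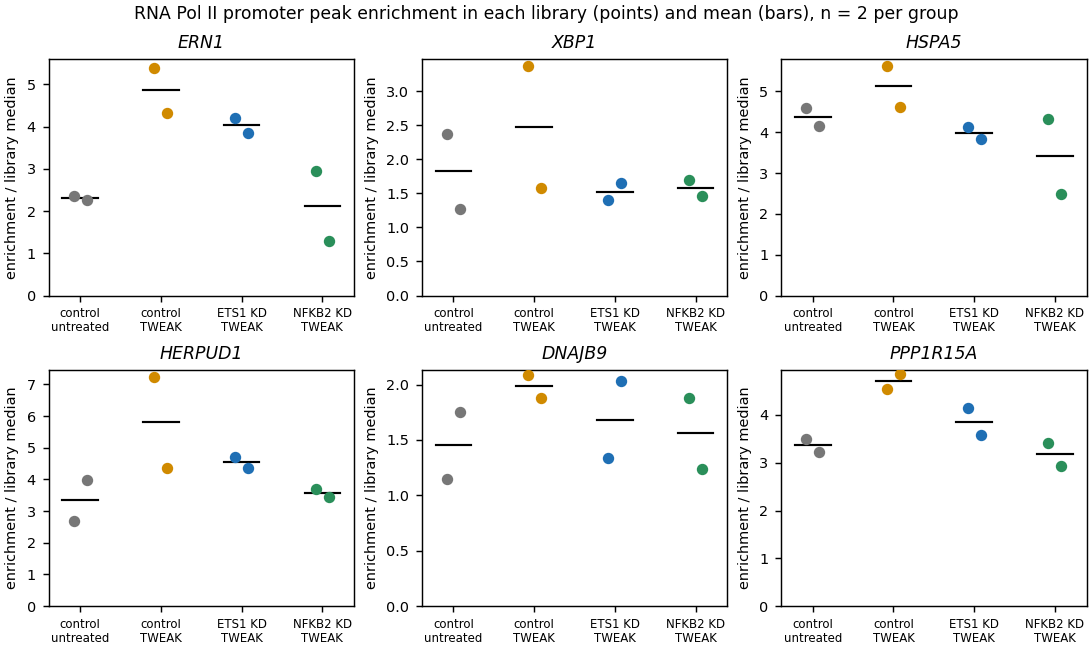
Pol II promoter fold enrichment of 6 genes divided by the library median over 5497 promoters (vertical axis) in each ChIP-seq library (points) and its mean (bars) by group (horizontal axis), n = 2 per group. *ERN1* lies at 4.32 and 5.39 in control TWEAK cells, above the 6 libraries of the other groups, while *DNAJB9* overlaps between control TWEAK and *ETS1* KD cells.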

How the data were processed

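The study measured polyA RNA in 12 RNA-seq libraries and ChIP-seq peaks in 20 libraries of U-87 MG cells. The authors trimmed reads with Trimmomatic, mapped RNA-seq reads to hg38 with STAR and deposited featureCounts read counts per gene, whose strand setting is not given in the sources used here, so a gene and an overlapping antisense gene may share reads. For ChIP-seq the authors mapped with Bowtie2, called peaks per library with MACS2 over input and deposited each peak's fold enrichment and its q-value as -log10. Tool versions are not given in the sources used here.

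The 47 duplicated gene identifiers of the 62696 rows were kept as deposited rows. Counts were tested in edgeR 4.0.16 (R 4.3.3) by the quasi-likelihood test, with trimmed mean of M-values (TMM) scaling, its default low-count filter, 1 model of the 4 groups and no covariate, and Benjamini-Hochberg adjustment over 16879 genes, with calls at an adjusted p under 0.05. Totals of 28384201 to 40192606 counts limit the precision for low genes such as *DERL3*. Levels are counts per 1000000 library counts (CPM) on the TMM scale. An SE belongs to the fitted log2 fold change, and was obtained by dividing its absolute value by the square root of the quasi-likelihood F. It therefore rests on the spread shared over the 4 groups and not on the libraries of the groups compared alone. In simulated data for the *ETS1* KD comparison (16879 genes), 84% of 100 genes changed by 1 and 98% of 100 genes changed by 2 on the log2 scale were recovered. Alternatives were DESeq2 1.42.0, its size factors in edgeR, no filter, only the groups compared, the study's limits, a replicate block, a loess correction for GC content and length, both of these together, each library left out and, added after the data were seen, both libraries with the steepest relation to GC content left out.

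Promoter windows used GENCODE v44 starts (hg38). For Pol II, the strongest promoter peak of each gene was divided by the library's median over genes with a peak in all 8 libraries, a scale added after the data were seen. The genes and lists were chosen with earlier results of these data known. Values per library were given for the sensors and transcription factors and every gene of the 37 called with TWEAK or a KD, and of the further pathway genes up to 8 called genes with the largest change were named. Promoters were shown for *ERN1*, *HSPA5* and the 5 genes with an ETS1 promoter peak in both TWEAK libraries, and *HERPUD1* and *DNAJB9* were added after their values were seen. Figures were drawn with matplotlib 3.10.9.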

Additional observations from a re-analysis of the deposited data

How the results depend on the processing

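The *ETS1* KD calls of *HSPA5* and *HERPUD1* were kept in 21 of 21 alternatives, and no called gene of the 37 reversed in any. With TWEAK, the number of the 37 called higher was 1 without the low-count filter, 1 under the study's limits, 2 with the GC content and length correction, 2 without both libraries with the steepest relation to GC content, and 0 to 1 when single libraries were left out, the 1 being *PPP1R15A* without *NFKB2* KD replicate 2. *ERN1* was the gene called without the filter (0.71), under the study's limits (0.74) and with the correction (0.75), but not without both steep libraries (0.93). Without both steep libraries, 6 of the 37 were lower with *ETS1* KD and 4 were lower in *ETS1* KD than in *NFKB2* KD cells, where *ERN1* differed by -0.015 instead of 0.05. Leaving out single libraries gave 2 to 4 lower with *ETS1* KD, 2 to 4 lower between the KDs, and -0.072 to 0.19 for *ERN1* between the KDs. The causes were not tested.

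Same-numbered replicates were alike in part: 9 of 18 pairs had correlated deviations above 0.1 (range -0.304 to 0.492). A library correlated best with its own number in 20 of 36 cases, each with 3 libraries to choose from. Some pairing is therefore possible, a hint from the data and not the design. A replicate block gave 1 of the 37 higher with TWEAK (*ERN1*, 0.72), and *DNAJB9* with *ETS1* KD had an adjusted p of 0.0514. The block with the GC content and length correction gave 3 higher with TWEAK (*ERN1* at 0.74), 6 lower with *ETS1* KD, and 1 higher and 4 lower between the KDs.

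Over all genes, the higher and lower calls with TWEAK went from 261 and 259 to 409 and 468 with DESeq2, 350 and 509 without the filter, 557 and 640 under the study's limits, 472 and 521 with the GC content and length correction, 705 and 817 with the block added, 477 and 521 without both steep libraries, and 110 to 435 and 61 to 537 without single libraries. With *ETS1* KD they went from 43 and 191 to 138 and 332 with DESeq2, 111 and 358 without the filter, 194 and 763 under the study's limits, 198 and 318 with the correction, 394 and 425 with the block added, 159 and 388 without both steep libraries, and 11 to 101 and 91 to 290 without single libraries. With *NFKB2* KD they went from 1 and 4 to 9 and 26 with DESeq2, 54 and 33 without the filter, 212 and 167 under the study's limits, 9 and 20 with the correction and the block, and 1 to 2 and 1 to 3 without single libraries. Between the KDs they went from 90 and 237 to 260 and 487 with DESeq2, 172 and 609 without the filter, 26 and 78 with only the groups compared, 299 and 945 under the study's limits, 408 and 465 with the correction, 864 and 658 with the block added, and 17 to 146 and 59 to 415 without single libraries.

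For p52 with TWEAK, counting a peak in either library gave 2 of the 37 promoters, and single libraries gave 0 to 2. For p52 in *ETS1* KD guide 2 cells, a window from 2000 bases before to 500 after a start gave 1. For ETS1 in untreated cells, a -log10 q of at least 5 gave 1, either library gave 5 and single libraries gave 2 to 5. For ETS1 with TWEAK the same choices gave 2, 8 and 5 to 8. Peak lists hold no reads for promoters without a peak, so a missing peak is not shown to be missing binding.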
